A study of Homo sapiens with 12 samples.

Results

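COL1A1, COL4A1, COL4A2, COL6A1, COL6A2, LAMC1, LAMB3, LAMA5 and THBS1 encode 5 collagen chains, 3 laminin chains and thrombospondin 1, all secreted proteins of the extracellular matrix. These 9 genes were taken by symbol from a table of 37471 genes, and each matched 1 row. Their levels were described in CAL62, an established human line from an anaplastic thyroid carcinoma. In isogenic CAL62 lines a doxycycline-inducible promoter drove mature hsa-miR-139-5p in the miR-139 line and a scrambled sequence without a target in the scrambled line. Each line was either left without doxycycline (0 h) or given 1 µg/ml of the drug for 96 h, which makes 4 groups of 3 libraries and 12 polyA RNA libraries in all. Whether a line is 1 clone or a pool is not given in the sources used here. The 3 columns of each group carry the tags C, NE and TR, whose meaning the labels do not give, so that each tag names a set of 4 libraries, 1 from each group.

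Collagen chains are hydroxylated and fold in threes into a triple helix, which is then exported and crosslinked. COL1A1 encodes a chain of fibrillar type I collagen, the main collagen of connective tissue, whereas COL4A1 and COL4A2 encode the chains of the type IV collagen network of basement membranes, the thin sheets on which thyroid follicles and other epithelia rest. COL6A1 and COL6A2 encode chains of type VI collagen, a microfibrillar collagen that lies between basement membranes and fibrillar matrix. Laminins, the other main polymer of basement membranes, join an alpha, a beta and a gamma chain: LAMA5 is an alpha, LAMB3 a beta and LAMC1 a gamma chain. THBS1 encodes a matricellular glycoprotein that binds CD47, CD36 and integrins and can activate latent TGF-beta.

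The miRNA and the sites in these genes that its seed could pair with are shown first, since the study induced the miRNA. The mature sequence is from RefSeq (GRCh38.p14, chr11:72615102-72615124, minus strand), with the seed, bases 2 to 8, in capitals.
hsa-miR-139-5p: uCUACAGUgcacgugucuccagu
The 3′ UTR of the transcript with the longest coding sequence of each gene (GENCODE 29, GRCh38) was searched for ACTGTAG, which pairs with bases 2 to 8, and for CTGTAGA, which pairs with bases 2 to 7 and adds an A, on the transcribed strand. Of the 9 genes only THBS1 had a match, and it held 1 of each in a 3′ UTR of 4097 bases, shown with the match in capitals, at chr15:39596966-39596972 (UTR bases 1597 to 1603) and chr15:39597199-39597205 (UTR bases 1830 to 1836), plus strand.
THBS1 site at bases 2 to 8: aacttaaagctACTGTAGtacctaaaaagt
THBS1 site at bases 2 to 7 and A: ggaaatactgcCTGTAGAgttagtatttct
Of 7611 tested genes with such a UTR, 9.74% (741 genes) held ACTGTAG and 10.5% (802 genes) held CTGTAGA. A match of these letters is a description of the sequence and was not measured as a binding site.

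COL4A1 and COL4A2 lie head to head on chromosome 13 and share a promoter, and its sequence is shown because the 2 genes followed each other across the libraries. In RefSeq (GRCh38.p14) COL4A1 starts at 110307157 on the minus strand and COL4A2 at 110307284 on the plus strand, 127 bases apart. The window of 300 bases around the COL4A1 start is chr13:110307108-110307407, minus strand. Capitals mark the 226 bases that also lie in the COL4A2 window, chr13:110307034-110307333, plus strand.
COL4A1 promoter: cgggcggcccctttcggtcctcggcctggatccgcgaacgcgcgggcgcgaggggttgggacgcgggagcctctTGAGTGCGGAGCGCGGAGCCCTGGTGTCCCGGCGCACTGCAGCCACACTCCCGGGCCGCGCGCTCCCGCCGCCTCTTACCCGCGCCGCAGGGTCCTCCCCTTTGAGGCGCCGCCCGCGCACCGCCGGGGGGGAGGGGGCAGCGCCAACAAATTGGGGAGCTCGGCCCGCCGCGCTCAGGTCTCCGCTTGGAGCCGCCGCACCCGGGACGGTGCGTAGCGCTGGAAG
The GC content of the windows was 76.7% for COL4A1 and 77.7% for COL4A2. THBS1 had the largest difference between library sets of the 9 genes, and its window, chr15:39580829-39581128, plus strand, is shown with its GGAATG, the core letters that TEAD factors bind, in capitals. Its first base is at position −46 from the start.
THBS1 promoter: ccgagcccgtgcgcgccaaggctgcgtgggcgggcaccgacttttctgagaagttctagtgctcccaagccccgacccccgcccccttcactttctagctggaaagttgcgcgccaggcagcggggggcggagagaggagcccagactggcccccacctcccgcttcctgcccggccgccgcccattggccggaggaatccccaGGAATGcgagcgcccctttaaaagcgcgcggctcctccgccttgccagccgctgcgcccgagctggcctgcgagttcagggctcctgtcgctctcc
On either strand, GGAATG was found in 14% of 35116 RefSeq promoter windows of this length, and, of the 7 genes with a window, only in that of THBS1. GGGCGG, the box bound by Sp1-type factors, was found 4 times in the THBS1 window and in 45% of all windows, and CCAAT 1 time and in 34.6%. TATAAA and the AP-1 letters TGANTCA were not found in the THBS1 window, against 11.5% and 7.71% of all windows.

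The libraries held from about 8560000 to 17800000 fragments, a depth recovered from the FPKM that 1 fragment gives in low genes of 1 annotated transcript. The C libraries had 11900000 to 13800000 fragments and the NE libraries 11200000 to 13000000, whereas the lowest and the highest depth were both in TR. The miRNA's reported target HNRNPF was 204.7 ± 28.8 FPKM (SD, n = 3) in untreated and 98.5 ± 13.7 in treated miR-139 cells, and 208.2 ± 32.6 and 215.8 ± 43.3 in those of the scrambled line. The thyroid factor PAX8 averaged 106.7 FPKM, whereas NKX2-1 was listed at 0 in all 12 libraries. The 5 thyroid markers with a row, nearly all PAX8, summed to 56.0 to 92.1 FPKM over the C libraries, below the 113.1 to 141.7 of NE and the 109.5 to 133.5 of TR. KRT7, KRT8, KRT18 and KRT19, keratins of simple epithelia, were all abundant, at means of 329.6 FPKM (KRT19) to 918 FPKM (KRT7). Of the other epithelial markers, EPCAM averaged 39.2 FPKM, whereas CDH1 averaged only 0.036 FPKM. The mesenchymal markers VIM, FN1, CDH2 and ZEB1 averaged 1710.9, 230.3, 23.1 and 10.3 FPKM. Of the 10 fibroblast markers, 6 have a row and 0 reached a mean of 1 FPKM, with COL3A1 and POSTN at 0 in all libraries. Their summed level ran from 0.218 to 0.429 FPKM in C, 0.215 to 0.441 in NE and 0.407 to 0.790 in TR. The TR range reached highest but overlapped with the others, and all sums stayed under 1. The 5 leukocyte markers with a row summed to 9.97 to 12.6 FPKM in C, 7.92 to 11.6 in NE and 5.44 to 6.98 in TR, with PTPRC and CD3E at 0 in all. Mitochondrially encoded genes took 11.4 to 12.8% of the FPKM sum in C libraries, 6.08 to 9.18% in NE and 12.3 to 13.1% in the TR libraries. The part of these shifts in the differences between library sets given below was not tested.

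The 9 genes spanned a wide range of levels, which FPKM, a unit per transcript length, allows to be set side by side. Over the 12 libraries LAMB3 had the highest mean, 68.5 ± 14.1 FPKM (SD, n = 12), followed by COL1A1 at 62.0 ± 24.1, COL4A2 at 51.3 ± 5.42, LAMC1 at 40.3 ± 7.11, LAMA5 at 36.5 ± 10.9, COL4A1 at 15.5 ± 1.42, COL6A1 at 7.10 ± 1.44, THBS1 at 5.28 ± 4.68 and COL6A2 at 0.824 ± 0.252. The ranges of the 5 highest genes overlapped among themselves, as did those of COL6A1 and THBS1. COL4A1, at 13.1 to 17.1 FPKM, lay below all LAMA5 values (lowest 23.0) and above all COL6A1 values (highest 9.19), and all COL6A2 values (0.486 to 1.25) lay below the lowest THBS1 value (1.51). The ratio of the highest to the lowest library was 1.31 for COL4A1, 1.505 for COL4A2 and 8.62 for THBS1, the smallest and the largest spreads of the 9 genes. COL6A2 rests on about 20 to 62 fragments a library, a counting error of 22.2% at the lowest, and THBS1 on about 141 to 1522 (8.42%). The mean of COL6A2 was under 1 FPKM, and the other 8 genes passed that minimum and were tested.

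**Figure D1:**
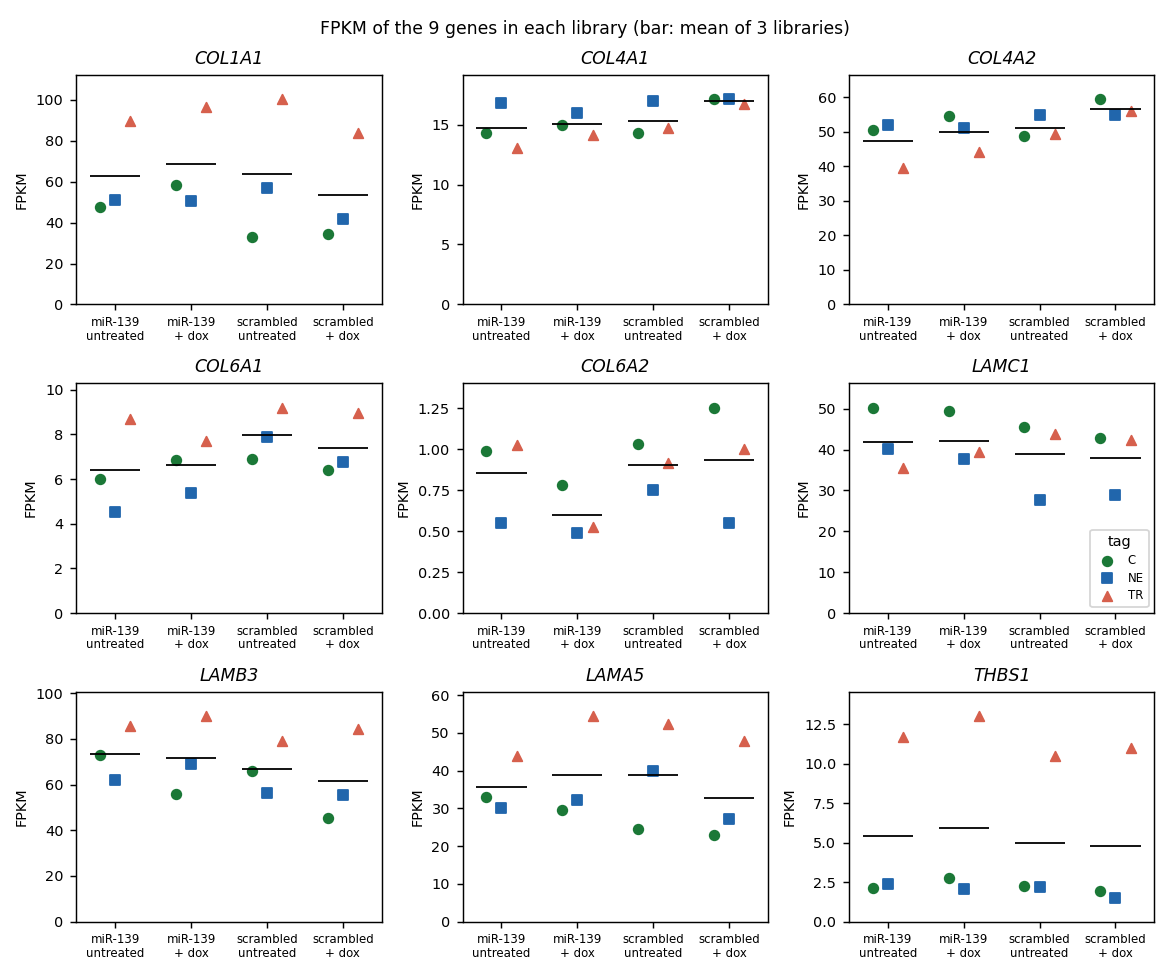
FPKM of the 9 genes (vertical axes, linear, from 0) in each of the 12 libraries by group (horizontal axis, dox: doxycycline), with the tag as colour and shape and a bar at the mean of the 3 libraries of a group. The 4 TR libraries are the highest of their group for COL1A1, COL6A1, LAMB3, LAMA5 and THBS1.

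The first comparison asked whether induction of miR-139-5p moved these matrix genes. None of the 8 tested genes passed the test with doxycycline in either line or in the difference between the lines' doxycycline changes (limma on log2(FPKM + 1), Benjamini-Hochberg adjusted over 9778 genes, threshold 0.05). The background was as low: 0% of all tested genes passed in each of the 5 comparisons between groups, with 72 genes at an unadjusted p under 0.05 for doxycycline with the miRNA, 47 with the control and 41 for the difference, and none of the 8 genes among them. With the tag as a replicate block, which removes the shift that the 4 libraries of a tag share, 0.0205% of genes (2 of 9778) passed with the miRNA, 0% with the control and 0.0102% (1 gene) for the difference, again without any of the 8 genes. The median change of the 8 genes was 0.08 on the log2 scale with the miRNA and −0.13 with the scrambled control, against 0.0032 and 0.023 over all tested genes.

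THBS1, the gene with the seed matches, was 2.13, 2.36 and 11.7 FPKM in the C, NE and TR libraries of untreated miR-139 cells and 2.75, 2.06 and 13.0 FPKM after doxycycline. It was higher after doxycycline in C and TR and lower in NE, and the groups overlapped. The change was 0.09 on the log2 scale (SE 0.13, 95% confidence interval −0.18 to 0.36 with the replicate block, limma adjusted p = 1.00), an interval that holds a small fall as well as a rise. In the scrambled line THBS1 went from 2.27, 2.19 and 10.5 FPKM to 1.92, 1.51 and 11.004 FPKM, a change of −0.15 (SE 0.13, limma adjusted p = 0.998).

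COL1A1 was 47.7, 51.0 and 89.7 FPKM in untreated and 58.4, 50.4 and 96.7 FPKM in treated miR-139 cells, a log2 change of 0.13 (SE 0.14, 95% confidence interval −0.18 to 0.43). In the scrambled line it was 33.2, 57.1 and 100.4 FPKM without and 34.7, 41.6 and 83.7 FPKM with the drug, a change of −0.22 (SE 0.14). The groups overlapped in both lines, since the TR library of each group stood well above its C and NE libraries. For the type IV chains, COL4A1 changed by 0.04 (SE 0.09) and COL4A2 by 0.08 (SE 0.10) with the miRNA and by 0.14 and 0.15 with the control. COL4A1 was higher after doxycycline in 3 of 3 tags of the scrambled line and in 2 of 3 of the miR-139 line. The type VI chain COL6A1 changed by 0.07 (SE 0.13) and −0.10 (SE 0.13). COL6A2, which was fitted only without the filter on low values (20148 genes), changed by −0.21 in the miR-139 line (SE 0.10 with the block, limma adjusted p = 0.943) and was lower in 3 of 3 tags, at 0.990, 0.551 and 1.03 FPKM before and 0.784, 0.486 and 0.527 FPKM after, with a counting error of up to 22.2% a value.

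Among the laminin chains, LAMC1 changed least in the miR-139 line, at 0.01 (SE 0.13), with LAMB3 at −0.05 (SE 0.12) and LAMA5 at 0.08 (SE 0.13). In the scrambled line the changes were −0.03, −0.15 and −0.25. LAMA5 fell short of the threshold there (SE 0.13, limma adjusted p = 0.998) though each of 3 tags was lower: 24.5, 39.9 and 52.3 FPKM before against 23.0, 27.2 and 47.8 FPKM after. The 95% confidence intervals of all 8 genes in both lines included 0 with and without the block. Without the block the SE was 0.77 for THBS1 and 0.42 for COL1A1, so that only much larger changes could have been detected.

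**Figure D2:**
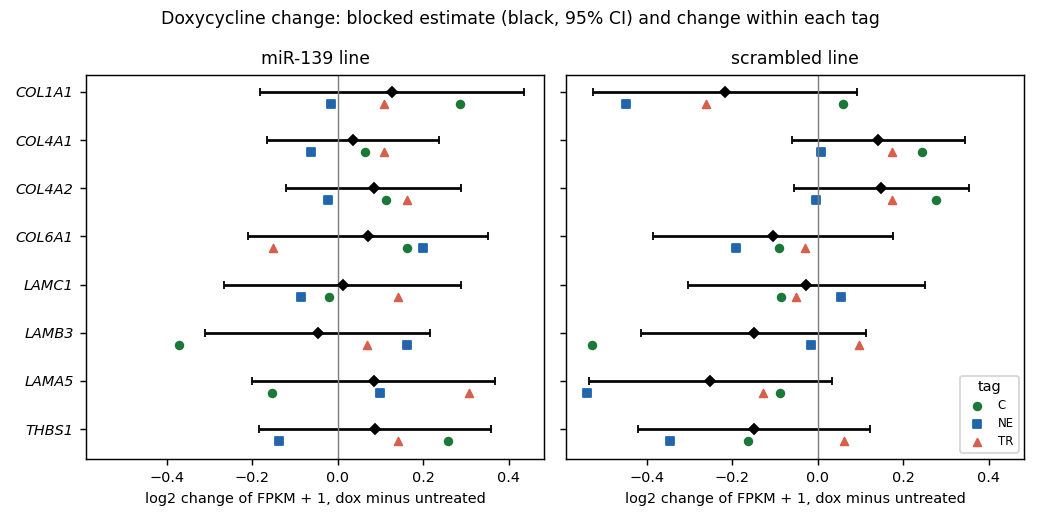
Log2 change of FPKM + 1 with doxycycline (horizontal axis) for the 8 tested genes by line. Black diamonds with bars are the estimates with the tag as replicate block and their 95% confidence intervals, all of which include 0, and coloured points are the changes within each tag.

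The second comparison set cells with the miRNA against cells with the control, with and without doxycycline. None of the 8 genes passed in either state without the block, where 105 and 58 of all genes reached an unadjusted p under 0.05. Blocking on the tag, 0.112% of genes (11 of 9778) passed in treated and 0% in untreated cells, and none of the 8 genes was among them. COL1A1 and THBS1 in treated and COL6A1 in untreated cells were among the 702 and 435 genes at an unadjusted p under 0.05 with the block. The largest difference was that of COL1A1, at 58.4, 50.4 and 96.7 FPKM in the treated miR-139 line and 34.7, 41.6 and 83.7 FPKM in the treated scrambled line. It was higher in the miR-139 line in 3 of 3 tags, by 0.40 on the log2 scale (SE 0.14 with the block, 95% confidence interval 0.10 to 0.71), and did not pass the adjustment (limma adjusted p = 0.505). THBS1 was also higher in 3 of 3 tags, by 0.29 (SE 0.13, limma adjusted p = 0.651). LAMB3 (0.23) and LAMA5 (0.26) were also higher in 3 of 3 tags, whereas COL4A1 (−0.17) and COL4A2 (−0.18) were lower in 3 of 3. None of these passed. In untreated cells LAMB3 was likewise higher (0.13) and COL4A1 lower (−0.06) in 3 of 3 tags, and COL1A1 and LAMA5 were each higher in 1 of 3 and THBS1 in 2 of 3. In untreated cells COL6A1 differed most, at 6.01, 4.53 and 8.67 FPKM with the miRNA construct and 6.88, 7.89 and 9.19 FPKM with the control, lower in 3 of 3 tags by a log2 value of −0.31 (SE 0.13 with the block, limma adjusted p = 0.928). The treated and the doxycycline comparisons share libraries.

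The 3 library sets differed far more than the groups. For THBS1, 98.0% of the sum of squares of log2(FPKM + 1) over the 12 libraries went with the tag and 1.22% with the group, for COL1A1 82.7% and 7.77%, for LAMA5 80.1% and 6.93%, for LAMB3 65.9% and 13.8%, for LAMC1 62.7% and 7.89% and for COL6A1 58.3% and 22.03%. The type IV chains stood apart from this, with 40.6% and 40.5% for COL4A1 and 30.8% and 41.4% for COL4A2. Over all tested genes the shares were 62.5% and 13.1%. In bulk RNA, fewer cells of a type and less RNA per cell cannot be told apart. The sets were compared in a fit with group and tag, as sets of libraries and not as conditions, and the 3 comparisons share libraries.

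TR libraries held more RNA of 5 of the 8 genes than C libraries: COL1A1, COL6A1, LAMB3, LAMA5 and THBS1 passed as higher and none as lower. Of all 9778 genes 16.6% passed (830 higher and 798 lower), and the median difference was 0.43 on the log2 scale for the 8 genes and −0.005 for all. The same 5 genes were higher in TR than in NE, where 45.4% of all genes passed (2022 higher and 2420 lower, or 2685 and 1780 once upper quartiles were set equal), with a median of 0.47 against −0.026. For NE against the mean of C and TR, 4 of the 8 genes passed, all as lower: COL1A1, COL6A1, LAMC1 and THBS1. There 52% of all genes passed (2739 higher and 2343 lower, or 2015 and 3064 with equal upper quartiles), so that 4 of 8 is near the background. Of these 4 only LAMC1 lay below C in each group: COL1A1 was higher in NE than in C in 3 of 4 groups (means of 50.04 and 43.5 FPKM), COL6A1 in 2 of 4 and THBS1 in 1 of 4, so that their difference came with the TR values.

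THBS1 rested at 2.13, 2.75, 2.27 and 1.92 FPKM in the 4 C libraries (untreated and treated miR-139 line, then untreated and treated scrambled line) and at 2.36, 2.06, 2.19 and 1.51 FPKM in the NE libraries. In the TR libraries it was 11.7, 13.0, 10.5 and 11.004 FPKM. All 4 TR values lay well above the 8 others, which overlapped with each other. The ratio of TR to C within a group was 4.63 to 5.74 (geometric mean 5.13) and that of TR to NE 4.80 to 7.29 (geometric mean 5.76). The log2 difference was 1.94 against C (SE 0.11, limma adjusted p = 6.31e-07) and 2.06 against NE (SE 0.11, limma adjusted p = 7.48e-08). Only 1 of the 9778 genes was higher by more in TR against C. The NE set was lower than the mean of the others by a log2 value of −1.08 (SE 0.10, limma adjusted p = 4.40e-06), a difference that comes with the TR values, since NE and C overlapped.

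COL1A1 ranged from 33.2 to 58.4 FPKM over the C, from 41.6 to 57.1 over the NE and from 83.7 to 100.4 over the TR libraries. The TR set did not overlap with the others, and C and NE did with each other. The difference of TR from C was 1.11 on the log2 scale (SE 0.12, limma adjusted p = 0.000107), with ratios within a group of 1.66 to 3.02, and from NE 0.88 (SE 0.12, limma adjusted p = 0.000109). LAMA5 followed the same order, with 27.5 ± 4.60 FPKM (SD, n = 4) in C, 32.4 ± 5.46 in NE and 49.6 ± 4.75 in TR, and differed between TR and C by 0.84 (SE 0.11, limma adjusted p = 0.000392). LAMB3 averaged 60.1 ± 11.9 FPKM in C, 60.7 ± 6.35 in NE and 84.7 ± 4.55 in TR, a difference from C of 0.51 (SE 0.11, limma adjusted p = 0.00598). Neither TR set overlapped with C or NE. COL6A1 had the smallest of these differences, 0.35 between TR and C (SE 0.11, limma adjusted p = 0.0473), on 6.53 ± 0.413 FPKM in C, 6.14 ± 1.49 in NE and 8.64 ± 0.659 in TR. Its limma adjusted p ranged from 0.0213 to 0.167 over 19 alternative settings, and its call was lost in 11 of them. These included leaving out the C or the TR library of the untreated miR-139, the untreated scrambled or the treated scrambled group, or the NE or the TR library of the treated miR-139 group (limma adjusted p of 0.0501 to 0.167). By contrast, THBS1, COL1A1, LAMB3 and LAMA5 passed between TR and C in all 19. In NE against C and TR, the call of COL1A1 was lost without the NE library of the treated miR-139 or of the treated scrambled group (limma adjusted p = 0.115 and 0.0633), and that of COL6A1 without each of 5 libraries, the 3 of the untreated miR-139 group and the C and NE libraries of the treated one (limma adjusted p of 0.0529 to 0.136).

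LAMC1 had another pattern. It was 50.2, 49.5, 45.5 and 42.8 FPKM in the C libraries, 40.03, 37.7, 27.7 and 28.8 FPKM in the NE libraries and 35.6, 39.3, 43.8 and 42.2 FPKM in the TR libraries. The NE values lay below the C value of the same group in 4 of 4 groups, at ratios of 0.608 to 0.797. The NE and C sets did not overlap. NE was lower than the mean of C and TR by −0.38 on the log2 scale (SE 0.10, limma adjusted p = 0.00483), while TR and C did not pass (−0.22, limma adjusted p = 0.188). TR against NE did not pass either (0.27, SE 0.11, limma adjusted p = 0.0636). LAMC1 was higher in TR than in NE in 3 of 4 groups, and the TR and NE sets overlapped. COL6A2 was also lower in NE than in C in 4 of 4 groups, at ratios of 0.441 to 0.730, with 1.02 ± 0.193 FPKM in C, 0.586 ± 0.117 in NE and 0.869 ± 0.233 in TR (no filter: −0.29 for NE against C and TR, SE 0.074, limma adjusted p = 0.0249). COL4A1 (15.2 ± 1.34, 16.7 ± 0.495 and 14.7 ± 1.53 FPKM in C, NE and TR) and COL4A2 (53.4 ± 4.74, 53.2 ± 2.01 and 47.3 ± 7.04 FPKM) passed in none of these comparisons, and their sets overlapped in all.

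**Figure D3:**
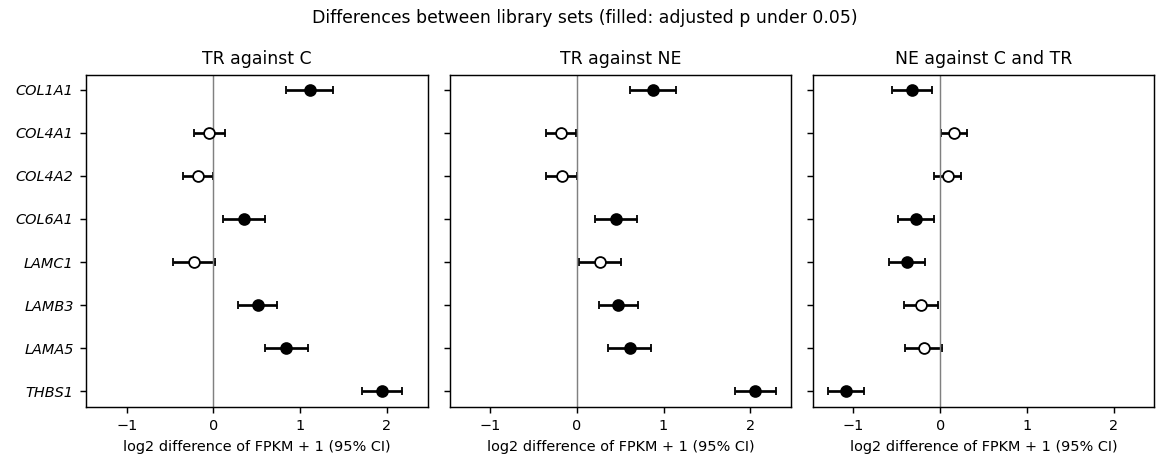
Log2 differences of FPKM + 1 between library sets (horizontal axes) for the 8 tested genes, with 95% confidence intervals. Filled points passed at an adjusted p under 0.05: 5 genes in TR against C and in TR against NE, all to the right of 0, and 4 in NE against C and TR, all to the left, with THBS1 farthest out in each panel.

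Chains that assemble together were set against each other within each library. The ratio of COL4A2 to COL4A1 was narrow, 3.31 ± 0.190 (SD, n = 12) with a range of 3.02 to 3.65, and was highest in C at 3.52 ± 0.097, against 3.18 ± 0.062 in NE and 3.22 ± 0.165 in TR. Their FPKM values correlated at r = 0.86 on the log2 scale over the 12 libraries, and at 0.91 after group and tag were taken out, a description of libraries that share depth and scaling. The annotated spans of the genes overlap at the shared start (COL4A1 ends at 110307233 and COL4A2 starts at 110305812 in GENCODE 29), and whether strand was used in the counting is not given in the sources used here, so reads from that stretch cannot be told apart. The ratio of COL6A1 to COL6A2 was wider, at 9.21 ± 2.68 (5.10 to 14.6). LAMA5 against the gamma chain LAMC1 averaged 0.581 ± 0.057 over the C, 0.999 ± 0.306 over the NE and 1.24 ± 0.107 over the TR libraries. The C libraries, at 0.536 to 0.656, thus lay below all NE (0.752 to 1.44) and all TR libraries (1.13 to 1.38). LAMB3 against LAMC1 averaged 1.27 ± 0.206 over the C, 1.84 ± 0.210 over the NE and 2.12 ± 0.275 over the TR libraries.

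**Figure D4:**
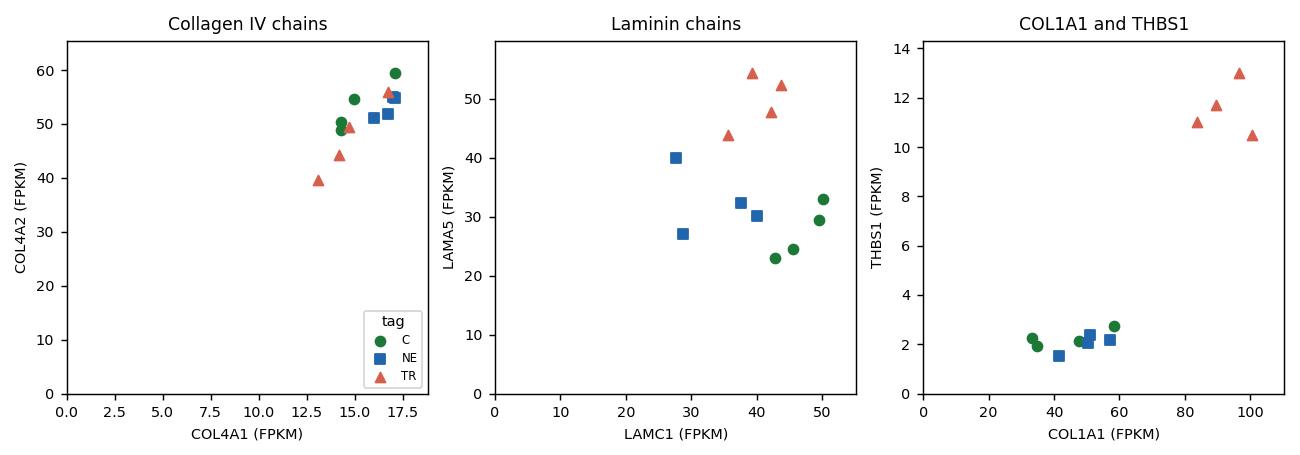
FPKM of pairs of genes in the 12 libraries (linear axes from 0), 1 point per library with its tag as colour and shape. COL4A2 follows COL4A1 at a ratio of 3.02 to 3.65, the C libraries have the lowest LAMA5 for their LAMC1, and the 4 TR libraries lie apart in COL1A1 and THBS1.

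COL1A1 and LAMA5 ran in parallel over the 12 libraries (Pearson r of log2(FPKM + 1) 0.96, and 0.72 after group and tag were taken out). COL1A1 and THBS1 had r = 0.91, which was 0.20 after group and tag were taken out, and LAMA5 and THBS1 0.87 and 0.10. Among the tested genes outside the 9, those whose log2 levels were most like each gene over the 12 libraries were KANK2 for COL1A1 (r = 0.96), NRP1, a receptor of semaphorins and VEGF, for LAMB3 (r = 0.96), ARHGAP21 and the receptor NOTCH2 for LAMC1 (r = 0.98 and 0.97) and the transcription factor TFAP2C for THBS1 (r = 0.98). KANK2 also stood second for LAMA5 (r = 0.96). TFAP2C averaged 0.982 ± 0.273 FPKM over the C, 0.827 ± 0.204 over the NE and 3.16 ± 0.356 over the TR libraries. OLFML2B and BMF, the next for THBS1, were 7.35 ± 2.01, 5.66 ± 0.505 and 23.8 ± 2.05 FPKM, and 0.612 ± 0.287, 0.246 ± 0.128 and 4.15 ± 0.751 FPKM. COL6A1 was most like OS9, a lectin of the endoplasmic reticulum (r = 0.95), COL4A1 most like CTD-3220F14.1 (r = 0.92) and COL4A2 most like AC005307.3 (r = 0.87).

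Other matrix genes were read from 8 lists, of which only genes with a row and a mean of at least 1 FPKM were tested. Genes of a list without a row were not analysed here. The counts stand beside the 16.6% of all tested genes that passed between TR and C (median difference −0.005) and the 52% that passed between NE and the mean of C and TR (median 0.016), and lower or higher in NE means against that mean. Of the other collagens, 5 of 39 listed genes were tested, and 3 were higher in TR than in C (list median 0.43): COL9A2 (0.75), COL13A1 (0.46) and COL18A1 (0.38), the last a basement membrane collagen at 29.1 ± 2.26 FPKM in C, 24.7 ± 3.72 in NE and 38.2 ± 2.82 in TR. In NE, 3 of the 5 were lower (median −0.37), near the background. THBS3, the 1 other thrombospondin tested, was higher in TR than in C by 0.28 and lower in NE by a log2 value of −0.98. Among the other laminin chains, the alpha chains LAMA3 (−0.17) and LAMA1 (−0.30) did not pass between TR and C, and both were lower in NE, LAMA3 by −0.55 and LAMA1 by −0.52.

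Of 12 tested genes that modify, fold or export collagen, 3 were higher in TR than in C, P4HA1 (0.67), SERPINH1 (0.39) and FKBP10 (0.30), a prolyl hydroxylase subunit and 2 collagen chaperones, and none was lower. With 16.6% of all genes passing and a list median of 0.03, this is near the background. In NE, against 52% of all genes, 5 of 12 were higher, among them COLGALT1 (0.53), SERPINH1 (0.45) and P4HB (0.27), and 4 were lower, among them the export receptor MIA3 (−0.51), at 21.9 ± 2.49 FPKM in C, 14.1 ± 2.03 in NE and 19.2 ± 1.19 in TR. P4HA1, another of the 4 (−0.29), was 16.2 ± 2.35 FPKM in C and 16.7 ± 1.08 in NE, so that its difference came with the 26.2 ± 1.94 of TR. Of 9 basement membrane partners, only TINAGL1 passed between TR and C (0.70), against 16.6% of all genes. It averaged 97.4 ± 20.3 FPKM over the C, 115.1 ± 14.0 over the NE and 156.0 ± 13.6 over the TR libraries. In NE, where 52% of all genes passed, NTN4 (−0.97), NID2 (−0.59), AGRN (−0.41), SMOC1 (−0.39) and HSPG2 (−0.35) were lower and NID1 (0.38) and FBLN1 (0.29) higher.

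Of 11 tested matrix glycoproteins outside the collagen and laminin families, 5 were higher in TR than in C, FN1 (0.89), FBN1 (0.76), LTBP3 (0.71), SPON1 (0.70) and MFGE8 (0.51), and none was lower, beside 16.6% of all genes passing in either direction. The list median was 0.22, with MATN3 (−0.21) and LTBP1 (−0.06) below 0 and not past the test. In NE, 10 of 11 were lower (median −0.46), beside 52% of all genes passing. FN1, the gene of fibronectin, was 222.9 ± 74.6 FPKM over the C, 59.996 ± 24.2 over the NE and 407.9 ± 126.3 over the TR libraries, and its difference in NE was −2.34 on the log2 scale. FN1 and SPON1 were also the only genes of the 8 lists to pass in a comparison of groups: with the replicate block they were higher in treated cells with the miRNA than in treated controls, by 1.16 (SE 0.15, limma adjusted p = 0.00969) and 1.07 (SE 0.13, limma adjusted p = 0.00632). Without the block neither passed. In untreated cells, with the block, FN1 was 0.32 and SPON1 0.76 on the same side without passing (limma adjusted p = 0.928 and 0.332), and the difference between the lines' doxycycline changes passed for neither (limma adjusted p = 1.00 for both).

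Of 14 tested receptors for collagen, laminin or thrombospondin, 5 were higher in TR than in C and none lower: ITGA11, an integrin chain that binds collagen (1.53), ITGB3 (0.93), ITGB4, the integrin chain of hemidesmosomes (0.50), and the laminin receptors ITGA7 (0.46) and BCAM (0.46). This stands beside 16.6% of all genes in either direction, and the list median was 0.21. In NE, beside 52% of all genes, 11 were lower and the syndecan SDC1 alone was higher (0.84). ITGB1, the shared beta chain of most matrix integrins, was 459.4 ± 16.6 FPKM over the C, 342.4 ± 54.2 over the NE and 461.6 ± 14.9 over the TR libraries. Of 10 genes of TGF-beta and its targets, TGFB1 was higher in TR than in C (0.33) and CYR61 (−0.38) and SMAD4 (−0.26) were lower, with a median of −0.04 and a count near the background of 16.6%. CYR61, a matricellular gene that TGF-beta induces, was 649.5 ± 48.2 FPKM over the C, 692.8 ± 110.2 over the NE and 499.4 ± 62.4 over the TR libraries, and so opposite in direction to THBS1.

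**Figure D5:**
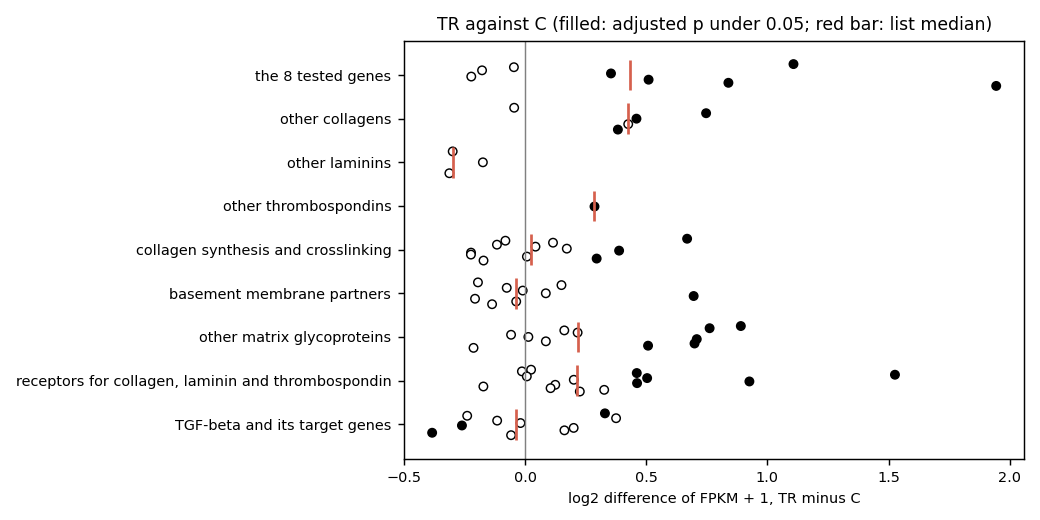
Log2 difference of FPKM + 1 between TR and C (horizontal axis) for the 8 tested genes and the tested genes of the 8 lists (vertical axis), 1 point per gene, filled where the adjusted p was under 0.05, with a red bar at the median of each list. The medians run from −0.30 for the other laminins to 0.43 for the 8 genes, and THBS1 is the farthest to the right.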

How the data were processed

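PolyA RNA libraries of 12 samples were measured on a HiSeq2500. The authors deposited FPKM values per gene (fragments scaled to transcript length and library total). The submitters' processing notes list, with no role or order, STAR 2.5, TopHat, TopHat2 2.0.10, Bowtie 1.0.0, HTSeq, Cufflinks, SAMtools 1.3.1 and 0.1.19, FastQC 0.11.0 and the builds hg19 and GRCh37. The sources used here do not say which of them made the FPKM values, or whether strand was used. Because each library is scaled to its own total, a rise of abundant genes lowers the others.

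Columns name a group and a tag but no replicate letter, so libraries were assigned by group. Tests used limma 3.58.1 (R 4.3.3) on log2(FPKM + 1), a scale that understates changes of low genes, over 9778 genes with a mean of at least 1, with a trend and Benjamini-Hochberg adjustment at 0.05. One fit of 4 group means gave 5 comparisons of groups. A fit of group and tag gave the comparisons of library sets, of which TR against NE was added after the data were seen. All tests are two-sided. The fit was tested on simulated data. The labels do not say whether libraries came from separate cultures, so the spread behind the p-values may be technical.

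Tags pair the libraries: deviations from the group means correlated at 0.33 to 0.86 in 18 of 18 same-tag pairs, and at −0.66 to 0.14 in the 36 different-tag pairs. None of 66 pairs of libraries were identical. Depth was computed from FPKM steps. Of the 797 single-transcript genes used, 74.4% gave a depth within 0.01% of the median. The 9 genes did not resolve to whole fragments, so no count test was run. Their fragment numbers are estimates over the longest coding transcript of GENCODE 29, another build, and cover counting error only.

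Named are the 9 genes, the 3 genes most like each, and list genes with a mean of at least 20 FPKM or a passed test, at most 5 per list and comparison. Of the genes that this rule names, 1 was left out. Members and lists were chosen with earlier results of these data known.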

Additional observations from a re-analysis of the deposited data

How the results depend on the processing

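None of the 8 genes passed in any of the 5 comparisons of groups under 11 alternatives, which were another pseudocount, 2 other filters, 2 scalings, no trend, the tag as a replicate block, that block with quantile normalization and that block without each tag in turn, or with any of 12 libraries left out. Number of genes passing among the 8 with the replicate block: 0 in each of these 5 comparisons. Over all genes the block moved the count from 0 to 2 for doxycycline in the miR-139 line and from 0 to 11 between the treated lines, and no filter moved it from 0 to 6 for doxycycline in the scrambled line. For NE against C and TR, 4 of the 8 genes passed as reported, 3 to 6 under 7 alternatives and 3 to 5 with a library left out. For TR against C, 5 passed as reported and 4 to 5 under the alternatives or with a library left out. For TR against NE, 5 passed as reported and 5 to 6 otherwise. Over all genes the count for TR against C ran from 875 to 2181 around the reported 1628. The calls that moved were those of COL6A1 (TR against C lost in 11 of 19 and NE in 7), of COL1A1 in NE (lost with no filter and without the NE library of the treated miR-139 or the treated scrambled line) and, gained, of LAMB3 (8 alternatives) and LAMA5 (4) in NE and of LAMC1 in TR against NE (4). The cause was not tested. No called difference changed sign. The depth limits COL6A2 most, with about 20 fragments in its lowest library.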
